A study of Mus musculus with 11 samples.

Results

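The genes described here are 10 widely used endothelial markers and vascular growth factor receptors, *Pecam1*, *Cdh5*, *Esam*, *Kdr*, *Flt1*, *Tek*, *Tie1*, *Eng*, *Emcn* and *Vwf*. They were found by gene symbol in the tables deposited by the authors, which hold 26283 genes, and all 10 were present. The tables come from bulk RNA sequencing of 11 mammary tumors of 18-week-old C57BL/6 mice carrying the MMTV-PyMT oncogene, a viral middle T antigen active in the mammary gland. The comparison asks which transcripts differ in tumors with Cre-deleted *Pcbp1*, the gene of PCBP1, an RNA- and DNA-binding protein. All animals also carried MMTV-Cre, and the groups differed in *Pcbp1* itself, with floxed alleles (fl/fl) in the 6 PyMT *Pcbp1*–/– tumors and unmodified alleles (wt/wt) in the 5 PyMT *Pcbp1*+/+ tumors. The labels name no treatment, and all libraries carry the same batch date. The MMTV promoter is used to drive Cre in mammary epithelial cells, and *Pcbp1* in endothelial cells was not measured here.

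Blood vessels are lined by endothelial cells, which are held together by adhesion molecules and take their growth cues from receptor tyrosine kinases. VEGF ligands act through the VEGF receptors to drive sprouting, while angiopoietins act through the TIE receptors to steady or loosen the vessel wall. Mammary tumors of the PyMT model grow as vascularized solid masses, so a bulk tumor library holds endothelial transcripts beside a large excess of epithelial ones.

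The deposited levels are CPM, the estimated count of a gene per 1000000 counts of the library. Library totals ran from 10543189 to 14092192 counts, and the PyMT *Pcbp1*–/– libraries were deeper, with a median of 13135786 against 10975699 (two-sided exact permutation test, p = 0.0173, n = 6 and 5). A count of 3, the limit that a count of 0 allows, equalled between 0.213 and 0.285 CPM, which covers counting error only. *Pcbp1* (ENSMUSG00000051695.6), on chromosome 6, from 86524492 to 86526321 on the minus strand in GRCm38, checked the labels. It stood at 19.5, 19.2, 28.1, 22.3, 15.4 and 33.6 CPM across PyMT *Pcbp1*–/– tumors 1 to 6 and at 268, 271, 225, 219.5 and 259 CPM across PyMT *Pcbp1*+/+ tumors 1 to 5. The groups did not overlap, and the log2 fold change was -3.43 (standard error 0.19, edgeR adjusted p = 4.72e-06). Groups that do not overlap were found for 3.29% of the 19232 genes tested.

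The 10 endothelial genes were detected in each of the 11 tumors, with the lowest estimated count of 15 for *Emcn*, and none was at 0 in a library. Summed over the 10 genes, the level was 145, 118, 78.8, 91.8, 83.2 and 90.0 CPM across PyMT *Pcbp1*–/– tumors 1 to 6. In PyMT *Pcbp1*+/+ replicates 1 to 5 the sum was 112, 134, 120.0, 139 and 81.2 CPM. The highest sum belonged to PyMT *Pcbp1*–/– replicate 1 and the lowest to PyMT *Pcbp1*–/– replicate 3, with PyMT *Pcbp1*+/+ replicate 5 close to it, so that the genotypes overlapped over nearly the whole range.

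No endothelial gene passed the test between the genotypes. With edgeR's quasi-likelihood test and Benjamini-Hochberg adjustment, 0 of the 10 reached an adjusted p under 0.05 in the lower direction and 0 in the higher direction, where lower and higher refer to PyMT *Pcbp1*–/– tumors and where 1.66% of all genes tested were lower and 0.608% were higher. At an unadjusted p under 0.05 the counts were again 0 lower and 0 higher, against 10.5% and 8.19% of all genes. At an unadjusted p under 0.001 with a fold change over 2, 0 of the 10 were lower and 0 were higher, beside 0.572% and 0.229% of all genes. DESeq2 and limma-voom with sample quality weights also called 0 of the 10 at an adjusted p under 0.05, and limma-voom placed 3 of them, *Esam*, *Emcn* and *Kdr*, lower at an unadjusted p under 0.05, where it placed 15.3% of all genes lower and 15.0% higher. In none of the 10 genes did the groups separate without overlap. All 10 log2 fold changes were negative, between -0.35 for *Flt1* and -0.07 for *Eng*, with a median of -0.22, while 9619 of the 19232 genes tested had a negative value and the median of all was -0.000123. The 95% intervals of all 10 differences included 0. The negative sign of all 10 was also found with each scaling tried, and it was lost for *Tek*, *Eng* and *Vwf* when certain single tumors were left out. In bulk tissue, the number of endothelial cells and the amount of these RNAs per cell cannot be told apart.

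**Figure D1:**
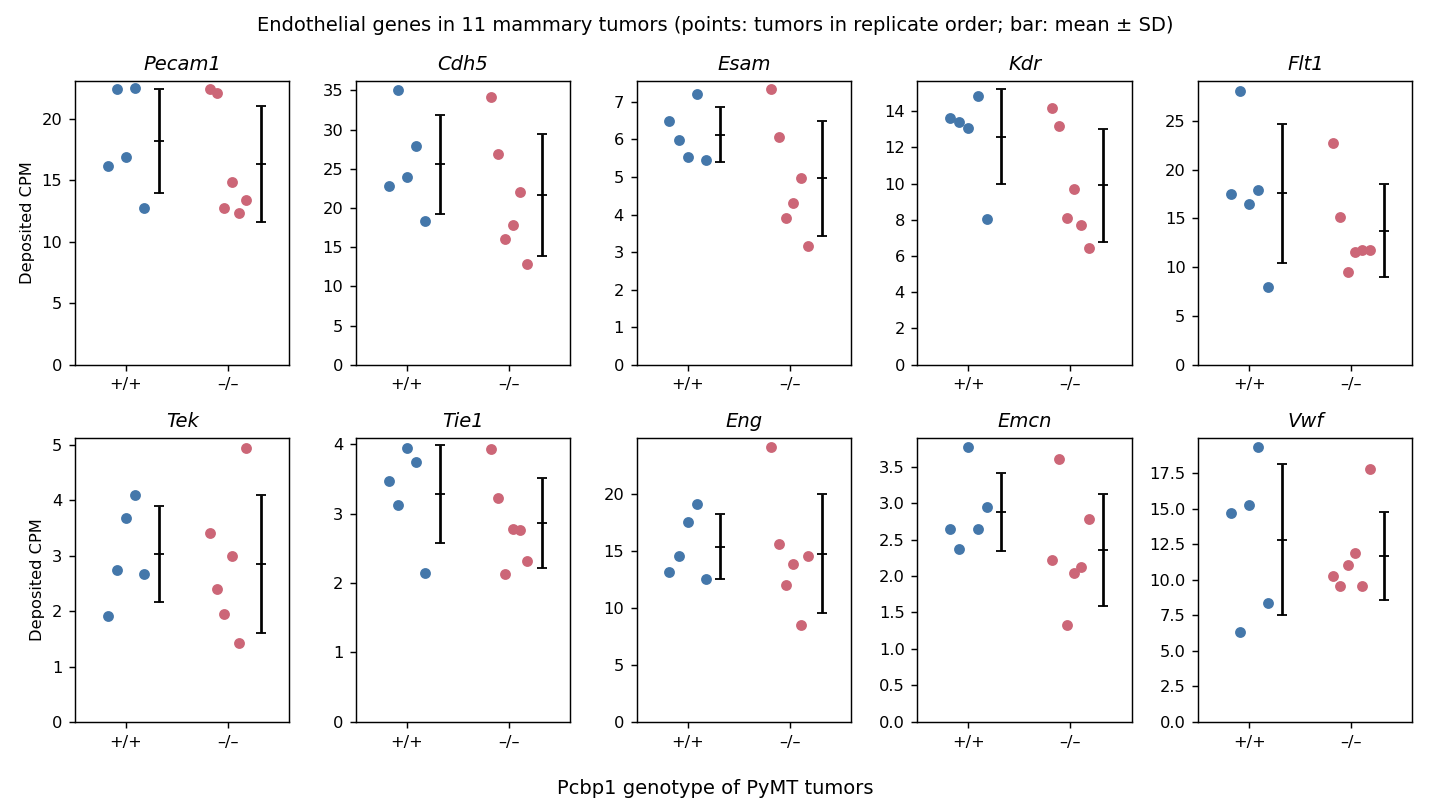
Deposited CPM of the 10 endothelial genes in PyMT *Pcbp1*+/+ (+/+, 5 tumors) and PyMT *Pcbp1*–/– (–/–, 6 tumors) mammary tumors, with 1 point per tumor in replicate order and the mean with its SD beside the points. Each axis starts at 0 and has its own scale. The genotypes overlap in every panel, and PyMT *Pcbp1*–/– replicate 1 is the highest of its group in 7 of the 10 panels.

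The junction and adhesion molecules come first. *Pecam1* (ENSMUSG00000020717.19; chromosome 11, from 106654217 to 106750628 on the minus strand) encodes PECAM-1 or CD31, an adhesion molecule at contacts between endothelial cells that leukocytes and platelets carry as well. Its level was 22.4, 22.1, 12.7, 14.8, 12.3 and 13.4 CPM across PyMT *Pcbp1*–/– tumors 1 to 6 and 16.2, 22.4, 16.9, 22.5 and 12.8 CPM across PyMT *Pcbp1*+/+ tumors 1 to 5. PyMT *Pcbp1*–/– replicates 1 and 2 stood with PyMT *Pcbp1*+/+ replicates 2 and 4 at the top, and the other 4 PyMT *Pcbp1*–/– tumors lay within 3 CPM of PyMT *Pcbp1*+/+ replicate 5. The mean was 16.3 ± 4.69 (SD, n = 6) for the PyMT *Pcbp1*–/– and 18.1 ± 4.22 (SD, n = 5) for the PyMT *Pcbp1*+/+ tumors, with a log2 fold change of -0.15 (95% interval -0.57 to 0.26, edgeR adjusted p = 0.705).

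*Cdh5* (ENSMUSG00000031871.9; chromosome 8, from 104101625 to 104144511 on the plus strand) encodes VE-cadherin, the cadherin of endothelial adherens junctions. It was measured at 34.2, 26.9, 16.1, 17.8, 22.0 and 12.9 CPM in the PyMT *Pcbp1*–/– tumors, in replicate order, and at 22.7, 35.1, 23.9, 27.9 and 18.3 CPM in the PyMT *Pcbp1*+/+ tumors. PyMT *Pcbp1*–/– replicate 1 and PyMT *Pcbp1*+/+ replicate 2 were the highest, and PyMT *Pcbp1*–/– replicate 6 was the lowest. The mean was 21.7 ± 7.83 (SD, n = 6) for the PyMT *Pcbp1*–/– and 25.6 ± 6.31 (SD, n = 5) for the PyMT *Pcbp1*+/+ tumors, and the fitted log2 fold change was -0.24 (95% interval -0.74 to 0.26, edgeR adjusted p = 0.609), which ran from -0.41 without PyMT *Pcbp1*–/– replicate 1 to -0.10 without PyMT *Pcbp1*+/+ replicate 2.

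*Esam* (ENSMUSG00000001946.14; chromosome 9, from 37528078 to 37538319 on the plus strand) encodes an immunoglobulin-like adhesion molecule of endothelial tight junctions. PyMT *Pcbp1*–/– replicates 1 to 6 gave 7.35, 6.07, 3.91, 4.31, 4.97 and 3.17 CPM, and PyMT *Pcbp1*+/+ replicates 1 to 5 gave 6.49, 5.97, 5.52, 7.20 and 5.45 CPM. The PyMT *Pcbp1*+/+ values were packed closely, whereas 4 of the 6 PyMT *Pcbp1*–/– tumors lay below all of them and PyMT *Pcbp1*–/– replicate 1 lay above all of them. The mean was 4.96 ± 1.53 (SD, n = 6) for the PyMT *Pcbp1*–/– and 6.13 ± 0.730 (SD, n = 5) for the PyMT *Pcbp1*+/+ tumors, and the log2 fold change was -0.30 (95% interval -0.72 to 0.11, edgeR adjusted p = 0.420).

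With edgeR and all 11 tumors the VEGF receptors had the most negative log2 fold changes of the 10 genes, but this order did not hold throughout, since limma-voom put *Emcn* first at -0.55 and *Flt1* came to -0.12 without PyMT *Pcbp1*+/+ replicate 2. *Kdr* (ENSMUSG00000062960.10; chromosome 5, from 75932827 to 75978458 on the minus strand) encodes VEGFR2, the main signalling receptor for VEGF-A. Its level was 14.2, 13.2, 8.10, 9.72, 7.74 and 6.42 CPM across PyMT *Pcbp1*–/– tumors 1 to 6 and 13.6, 13.4, 13.1, 14.9 and 8.04 CPM across PyMT *Pcbp1*+/+ tumors 1 to 5. In 4 of the 5 PyMT *Pcbp1*+/+ tumors the values fell in a narrow band above 13 CPM, and PyMT *Pcbp1*+/+ replicate 5 stood apart below it, among the 4 lower PyMT *Pcbp1*–/– tumors. PyMT *Pcbp1*–/– replicates 1 and 2 reached that band. The mean was 9.89 ± 3.14 (SD, n = 6) for the PyMT *Pcbp1*–/– and 12.6 ± 2.63 (SD, n = 5) for the PyMT *Pcbp1*+/+ tumors, with a log2 fold change of -0.35 (95% interval -0.80 to 0.10, edgeR adjusted p = 0.394). Without PyMT *Pcbp1*+/+ replicate 5 the log2 fold change was -0.46 (edgeR adjusted p = 0.233, within a range of 0.233 to 0.572 over the 11 fits that leave out a tumor).

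*Flt1* (ENSMUSG00000029648.13; chromosome 5, from 147561604 to 147726011 on the minus strand) encodes VEGFR1, which binds VEGF-A tightly, signals weakly and also exists as a soluble decoy, and macrophages express it too. The tumors gave 22.7, 15.1, 9.52, 11.6, 11.7 and 11.8 CPM across PyMT *Pcbp1*–/– tumors 1 to 6 and 17.5, 28.1, 16.5, 17.95 and 7.95 CPM across PyMT *Pcbp1*+/+ tumors 1 to 5. Both extremes were PyMT *Pcbp1*+/+ tumors, replicate 2 at the top and replicate 5 at the bottom, so that the PyMT *Pcbp1*–/– values lay inside the PyMT *Pcbp1*+/+ range. The mean was 13.7 ± 4.76 (SD, n = 6) for the PyMT *Pcbp1*–/– and 17.6 ± 7.15 (SD, n = 5) for the PyMT *Pcbp1*+/+ tumors, and the log2 fold change was -0.35 (95% interval -0.94 to 0.24, edgeR adjusted p = 0.523). The CPM ratio of *Flt1* to *Kdr*, a pair of receptors that share VEGF-A, was 1.41 ± 0.28 (SD, n = 6) for the PyMT *Pcbp1*–/– and 1.37 ± 0.43 (SD, n = 5) for the PyMT *Pcbp1*+/+ tumors. The difference in this ratio, chosen after the values were seen, was smaller than the spread among tumors (exact two-sided permutation test of log2 ratios, p = 0.742, adjusted p = 0.742 over 2 ratios).

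The TIE receptors were low. *Tek* (ENSMUSG00000006386.15; chromosome 4, from 94739289 to 94874976 on the plus strand) encodes TIE2, the receptor of the angiopoietins, which a subset of macrophages also carries. It stood at 3.42, 2.40, 1.96, 3.00, 1.42 and 4.95 CPM across PyMT *Pcbp1*–/– tumors 1 to 6 and at 1.92, 2.75, 3.68, 4.10 and 2.68 CPM across PyMT *Pcbp1*+/+ tumors 1 to 5. The PyMT *Pcbp1*–/– group held both the lowest tumor, replicate 5, and the highest, replicate 6, and enclosed all PyMT *Pcbp1*+/+ values. The mean was 2.86 ± 1.25 (SD, n = 6) for the PyMT *Pcbp1*–/– and 3.03 ± 0.867 (SD, n = 5) for the PyMT *Pcbp1*+/+ tumors, with a log2 fold change of -0.09 (95% interval -0.77 to 0.59, edgeR adjusted p = 0.904). The sign turned positive, at 0.05, 0.03 and 0.02, without PyMT *Pcbp1*–/– replicate 5, PyMT *Pcbp1*+/+ replicate 3 or PyMT *Pcbp1*+/+ replicate 4.

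*Tie1* (ENSMUSG00000033191.14; chromosome 4, from 118471191 to 118490061 on the minus strand) encodes a related receptor that binds no angiopoietin strongly on its own and modulates TIE2. The values were 3.93, 3.22, 2.13, 2.78, 2.77 and 2.32 CPM in the PyMT *Pcbp1*–/– and 3.47, 3.13, 3.94, 3.74 and 2.14 CPM in the PyMT *Pcbp1*+/+ tumors, in replicate order. PyMT *Pcbp1*–/– replicate 1 lay at the PyMT *Pcbp1*+/+ maximum, and PyMT *Pcbp1*+/+ replicate 5 lay beside PyMT *Pcbp1*–/– replicate 3, the lowest of the 11. The mean was 2.86 ± 0.650 (SD, n = 6) for the PyMT *Pcbp1*–/– and 3.28 ± 0.707 (SD, n = 5) for the PyMT *Pcbp1*+/+ tumors, and the log2 fold change was -0.20 (95% interval -0.64 to 0.24, edgeR adjusted p = 0.632). The counts behind *Tie1* ran from 24 to 46 per library and those behind *Tek* from 20 to 64.

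*Eng* (ENSMUSG00000026814.16; chromosome 2, from 32646595 to 32682669 on the plus strand) encodes endoglin, a co-receptor for BMP9 and TGF-β ligands on endothelial cells that mesenchymal cells and macrophages express too. PyMT *Pcbp1*–/– replicates 1 to 6 had 24.1, 15.6, 12.0, 13.8, 8.52 and 14.5 CPM and PyMT *Pcbp1*+/+ replicates 1 to 5 had 13.2, 14.5, 17.5, 19.1 and 12.5 CPM. PyMT *Pcbp1*–/– tumors supplied the highest value, replicate 1, and the lowest, replicate 5, with every PyMT *Pcbp1*+/+ tumor between them. The mean was 14.8 ± 5.20 (SD, n = 6) for the PyMT *Pcbp1*–/– and 15.4 ± 2.86 (SD, n = 5) for the PyMT *Pcbp1*+/+ tumors, with a log2 fold change of -0.07 (95% interval -0.54 to 0.41, edgeR adjusted p = 0.900). It turned to 0.05, 0.02 and 0.00 without PyMT *Pcbp1*–/– replicate 5, PyMT *Pcbp1*+/+ replicate 3 or PyMT *Pcbp1*+/+ replicate 4. The last 61 bases of *Eng*, from 32682609 to 32682669, overlap *Fpgs* on the minus strand (mean 16.3 CPM). The labels describe stranded libraries, but how strand was used in counting is not given in the sources used here, so reads in that overlap are uncertain.

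*Emcn* (ENSMUSG00000054690.17; chromosome 3, from 137341067 to 137432185 on the plus strand) encodes endomucin, a sialoglycoprotein on the surface of venous and capillary endothelium. Its level was 2.22, 3.60, 1.33, 2.05, 2.13 and 2.78 CPM across PyMT *Pcbp1*–/– tumors 1 to 6 and 2.65, 2.37, 3.77, 2.64 and 2.95 CPM across PyMT *Pcbp1*+/+ tumors 1 to 5. PyMT *Pcbp1*–/– replicate 2 and PyMT *Pcbp1*+/+ replicate 3 were high, and PyMT *Pcbp1*–/– replicate 3 was the lowest, while PyMT *Pcbp1*–/– replicate 1 was near the middle of its group. The mean was 2.35 ± 0.766 (SD, n = 6) for the PyMT *Pcbp1*–/– and 2.88 ± 0.539 (SD, n = 5) for the PyMT *Pcbp1*+/+ tumors, and the log2 fold change was -0.30 (95% interval -0.84 to 0.24, edgeR adjusted p = 0.549).

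*Vwf* (ENSMUSG00000001930.17; chromosome 6, from 125546774 to 125686679 on the plus strand) encodes von Willebrand factor, the secreted glycoprotein stored in endothelial granules and in platelets. The tumors had 10.3, 9.60, 11.0, 11.9, 9.58 and 17.8 CPM across PyMT *Pcbp1*–/– tumors 1 to 6 and 14.7, 6.35, 15.2, 19.3 and 8.39 CPM across PyMT *Pcbp1*+/+ tumors 1 to 5. Here 5 of the 6 PyMT *Pcbp1*–/– tumors lay within a narrow band and replicate 6 stood above it, whereas the PyMT *Pcbp1*+/+ tumors were spread from replicate 2, the lowest of all, to replicate 4, the highest of all. The mean was 11.7 ± 3.11 (SD, n = 6) for the PyMT *Pcbp1*–/– and 12.8 ± 5.32 (SD, n = 5) for the PyMT *Pcbp1*+/+ tumors, with a log2 fold change of -0.12 (95% interval -0.70 to 0.45, edgeR adjusted p = 0.842). Without PyMT *Pcbp1*+/+ replicate 4 it was 0.05.

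**Figure D2:**
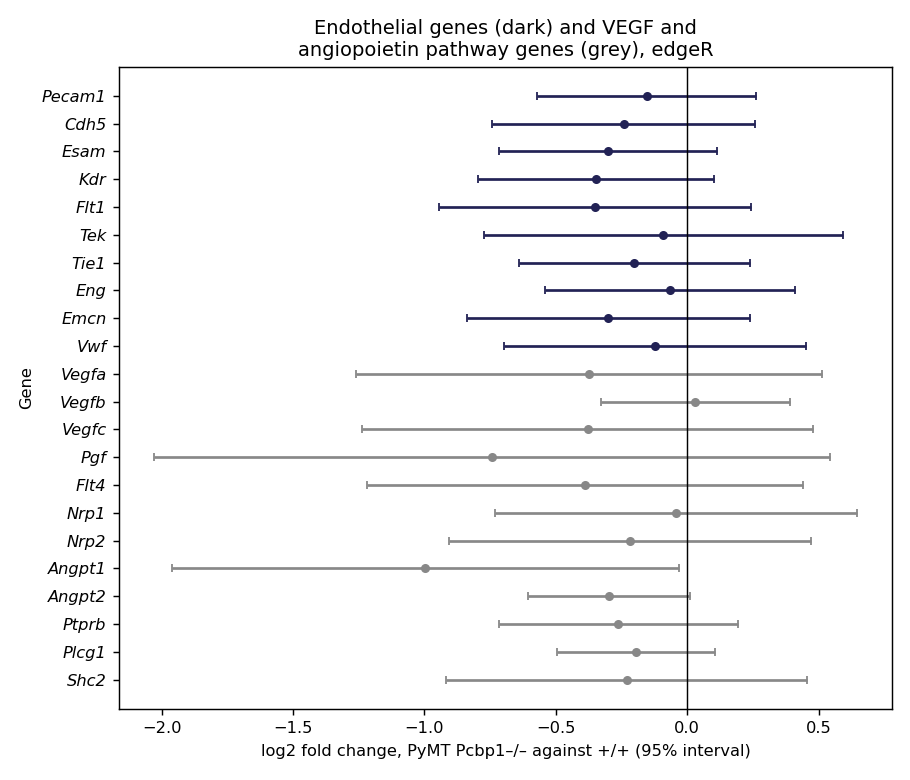
Log2 fold change of PyMT *Pcbp1*–/– against PyMT *Pcbp1*+/+ tumors from edgeR, with its 95% interval, for the 10 endothelial genes (dark) and the 12 tested genes of the VEGF and angiopoietin pathway (grey). All 10 endothelial genes lie left of 0 with intervals that include 0, and *Angpt1* has the most negative value at -0.997.

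Levels were compared between genes as CPM per kb of exon, using the union of exons of each gene in GENCODE for GRCm39, a later build from which lengths alone were taken. Over the 11 tumors *Cdh5* had the highest level, 5.35 ± 1.63 CPM per kb (SD, n = 11), and it was the highest of the 10 in every tumor. *Eng* (1.93 ± 0.53), *Esam* (1.80 ± 0.43) and *Pecam1* (1.71 ± 0.44 CPM per kb) followed and did not differ beyond their spread. *Kdr* at 1.21 ± 0.34 and *Flt1* at 1.13 ± 0.44 CPM per kb were likewise within their spread of each other. *Vwf* had 0.729 ± 0.243, *Tie1* 0.610 ± 0.136, *Tek* 0.489 ± 0.174 and *Emcn* 0.393 ± 0.105 CPM per kb, each neighbour within the spread of the next. *Emcn* was the lowest in 7 of the 11 tumors, *Tek* in 3 and *Tie1* in 1. With the longest transcript as the length, *Cdh5* was again first at 5.70 CPM per kb, *Pecam1* became the second at 3.52, and *Tek* took the last place at 0.590.

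The genes differed in how they varied from tumor to tumor. After the mean of each genotype was removed from log2 CPM, the 45 pairs of genes had a median Pearson r of 0.44 over the 11 tumors, from -0.481 for *Cdh5* with *Vwf* to 0.874 for *Pecam1* with *Kdr*. These values are descriptions over shared libraries and carry no test. *Pecam1*, *Cdh5*, *Esam*, *Kdr*, *Flt1* and *Tie1* varied together, with a median r of 0.802 over their 15 pairs and none below 0.527. *Kdr* had an r of 0.856 with *Tie1* and 0.755 with *Flt1*, and *Cdh5* had an r of 0.862 with *Esam*. The 30 pairs that include *Tek*, *Eng*, *Vwf* or *Emcn* had a median r of 0.204, and 7 of them were negative. Among these 4 genes *Eng* was the nearest to the 6 above, with an r of 0.732 with *Pecam1*, 0.64 with *Kdr*, 0.624 with *Tie1*, 0.527 with *Flt1*, 0.453 with *Esam* and 0.44 with *Cdh5*. *Tek* was closest to *Eng* (r = 0.733) and *Vwf* (r = 0.504), but had an r of 0.208 with *Tie1*, its partner receptor. *Emcn* reached at most 0.407, with *Tek*. This grouping was drawn after the values were seen.

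Among PyMT *Pcbp1*–/– tumors, replicate 1 was above its group mean in 8 of the 10 genes, with a median deviation of 0.51 on the log2 scale, and the exceptions were *Emcn* and *Vwf*. PyMT *Pcbp1*–/– replicate 3 was below its group mean in all 10, with a median of -0.33. In PyMT *Pcbp1*–/– replicate 6, *Tek* and *Vwf* were above the mean by 0.88 and 0.65, while *Cdh5*, *Esam* and *Kdr* were at -0.64, -0.55 and -0.53. Among PyMT *Pcbp1*+/+ tumors, replicates 3 and 4 were above the mean in 9 of 10 genes each, and replicate 5 in 1 of 10, with *Flt1* at -0.94. PyMT *Pcbp1*+/+ replicate 2 combined *Flt1* at 0.76 with *Vwf* at -0.90.

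**Figure D3:**
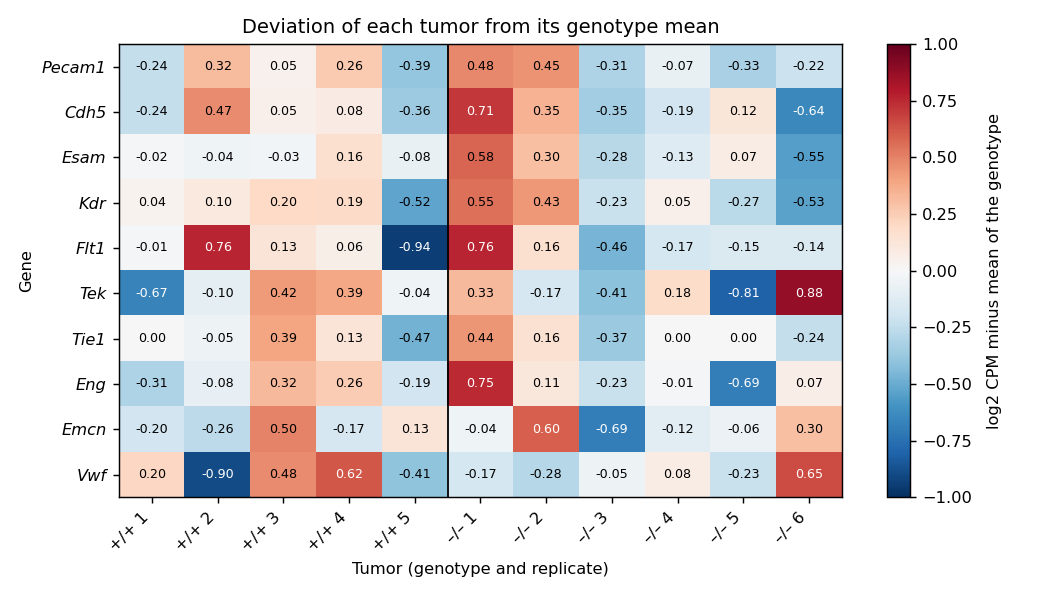
Log2 CPM of each endothelial gene in each tumor minus the mean of its genotype, with PyMT *Pcbp1*+/+ tumors left of the line and PyMT *Pcbp1*–/– tumors right of it; red is above and blue below the genotype mean. PyMT *Pcbp1*–/– replicate 1 is red in 8 of 10 genes, and PyMT *Pcbp1*–/– replicate 6 is red for *Tek* and *Vwf* and blue for *Cdh5*, *Esam* and *Kdr*.

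**Figure D4:**
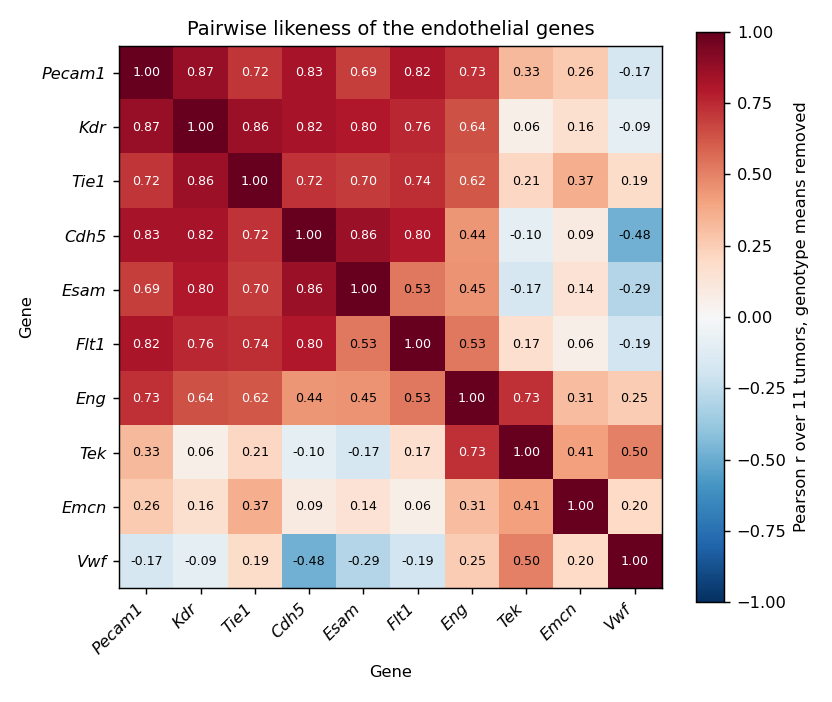
Pearson r between the endothelial genes over 11 tumors, computed on log2 CPM with genotype means removed. The 6 genes at the top left share r values of at least 0.527, and *Vwf* has values below 0 with 5 of these 6.

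Among 18516 genes outside all lists with a mean of at least 1 CPM, the 5 whose pattern was most like the mean of the 10 standardized endothelial genes were *Slc4a2* (r = 0.950), *Bet1l* (r = 0.941), *Ttc5* (r = 0.928), *Epha2* (r = 0.926) and *Man2c1* (r = 0.912), each over 11 tumors. Their r values were the highest of 18516, and how high r would run by such selection alone was not tested. None of the 5 genes passed the test between the genotypes. Of the listed genes, *Egfl7*, which encodes an endothelial matrix protein, had an r of 0.944, *Plvap*, a component of the diaphragms of fenestrated capillaries, 0.918, and *Gja5*, an arterial connexin, 0.904. These 3 were picked after their values were seen. The lists that hold *Plvap* (sprouting and tip cell) and *Gja5* (Notch and arteriovenous) had a median r of 0.287 and 0.371. The 29 tested genes of a longer list of endothelial markers had a median r of 0.539 with the mean of the 10 genes, beside 0.0056 for the 19051 tested genes outside the lists.

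Markers of other cell types were set beside this tumor-to-tumor pattern. The summed level of 10 luminal epithelial markers, of which *Ehf* was the most abundant and none was at 0 in a tumor, was 1612, 2305, 2657, 2683, 2964 and 2324 CPM across PyMT *Pcbp1*–/– tumors 1 to 6 and 2595, 2299, 2186, 2601 and 2686 CPM across PyMT *Pcbp1*+/+ tumors 1 to 5. Its r with the mean of the 10 endothelial genes was -0.793, and PyMT *Pcbp1*–/– replicate 1, highest in the endothelial genes, was the lowest of the 11 in luminal markers. The sum of 8 fibroblast markers, led by *Col1a1* and with none at 0, was 933, 843, 758, 764, 483 and 1169 CPM in PyMT *Pcbp1*–/– and 503, 701, 854, 894 and 503 CPM in PyMT *Pcbp1*+/+ tumors, with an r of 0.600. The sum of 8 macrophage markers, led by *Cd14* and with none at 0, was 423, 327, 332, 272, 260.4 and 322 CPM in PyMT *Pcbp1*–/– and 551, 445, 377, 342 and 251 CPM in PyMT *Pcbp1*+/+ tumors, with an r of 0.415. *Cd14* departed from the other 7, whose sum, taken after the values were seen, averaged 242 ± 67.2 CPM (SD, n = 6) for the PyMT *Pcbp1*–/– and 207 ± 61.9 CPM (SD, n = 5) for the PyMT *Pcbp1*+/+ tumors, with an r of 0.686. For 8 adipocyte markers, led by *Lipe*, the sum was 49.3, 23.9, 15.9, 18.7, 16.8 and 45.6 CPM in PyMT *Pcbp1*–/– and 21.8, 15.3, 115, 34.5 and 30.4 CPM in PyMT *Pcbp1*+/+ tumors, with an r of 0.565, and *Retn*, *Adipoq* and *Cidec* were at 0 in at least 1 tumor. For the sums of the other marker lists r was 0.658 for platelet and megakaryocyte genes (where *Itgb3*, the most abundant, had 0.686 and the median gene -0.021), 0.263 for pericyte and smooth muscle, 0.00786 for lymphatic endothelial, -0.0797 for T cell, -0.321 for red blood cell and -0.346 for basal epithelial genes. The log2 total count had an r of -0.0486 with the endothelial mean. The part of tissue makeup in the endothelial values was not tested.

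Promoter sequences, 250 bases before to 50 after the start of a RefSeq gene, were matched in a RefSeq table for GRCm38.p6 for 6 of the 10 genes: *Eng*, *Emcn*, *Tek*, *Tie1*, *Kdr* and *Flt1*. *Pecam1*, *Cdh5*, *Esam* and *Vwf* had no entry. On either strand, AACAGGAA, a joint motif of forkhead and ETS factors, occurred in 1 of the 6, *Emcn*, and in 2.65% of all 32851 promoters. The ETS motif ACCGGAAG occurred in 0 of the 6 and in 2.30% of all promoters. TACGTG, 1 form of the hypoxia response motif, occurred in 0 of the 6 and in 3.23% of all promoters. Other forms of that motif were not searched for. The ETS core GGAA, a part of both ETS-type motifs that was added after the data were seen, occurred in all 6 and in 96.0% of all promoters. *Tie1* held 9 copies of it, *Emcn* 6, *Kdr* 5, *Eng* 4, *Flt1* 4 and *Tek* 2, where the median promoter held 3. The stretch for *Tie1* reaches from 38 bases before to 262 bases inside the gene as the deposited tables place it, so most of its copies lie within that gene, while the other 5 stretches hold 239 to 250 bases before the deposited start. The promoters of *Kdr* and *Tie1*, whose levels varied together, and of *Tek* and *Emcn*, whose levels did not follow them, are shown 5′ to 3′ along the strand of the gene. They lie at chr5:75978406-75978705 (minus strand), chr4:118489800-118490099 (minus strand), chr4:94739039-94739338 (plus strand) and chr3:137340828-137341127 (plus strand), with GGAA or its reverse complement TTCC in capitals and, in *Emcn*, the longer match TTCCTGTT. A match is a description of letters and not evidence of a bound factor.
Kdr: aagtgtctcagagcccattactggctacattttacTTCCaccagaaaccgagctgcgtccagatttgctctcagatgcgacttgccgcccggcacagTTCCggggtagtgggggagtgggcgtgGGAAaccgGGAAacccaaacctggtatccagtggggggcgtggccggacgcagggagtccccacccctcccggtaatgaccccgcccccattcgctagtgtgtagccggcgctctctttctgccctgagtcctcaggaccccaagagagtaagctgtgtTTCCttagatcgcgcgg
Tie1: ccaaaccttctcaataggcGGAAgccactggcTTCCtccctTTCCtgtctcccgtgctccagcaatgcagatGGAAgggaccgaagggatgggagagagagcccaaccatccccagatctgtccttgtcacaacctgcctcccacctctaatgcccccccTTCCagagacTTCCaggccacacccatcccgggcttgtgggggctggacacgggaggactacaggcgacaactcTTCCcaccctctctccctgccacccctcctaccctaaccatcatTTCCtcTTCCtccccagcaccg
Tek: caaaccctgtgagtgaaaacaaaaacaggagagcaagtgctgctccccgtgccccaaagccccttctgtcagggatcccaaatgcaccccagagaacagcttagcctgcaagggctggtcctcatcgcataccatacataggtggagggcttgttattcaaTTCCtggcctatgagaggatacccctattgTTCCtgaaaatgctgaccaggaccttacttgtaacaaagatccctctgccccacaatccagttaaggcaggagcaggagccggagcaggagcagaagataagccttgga
Emcn: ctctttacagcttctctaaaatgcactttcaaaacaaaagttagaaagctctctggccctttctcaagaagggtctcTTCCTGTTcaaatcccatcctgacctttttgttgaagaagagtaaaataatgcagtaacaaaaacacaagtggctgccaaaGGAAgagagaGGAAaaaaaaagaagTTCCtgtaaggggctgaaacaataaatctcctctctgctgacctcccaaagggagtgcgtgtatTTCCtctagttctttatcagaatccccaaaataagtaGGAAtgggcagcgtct

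Genes that act with these receptors were then read from a fixed list of the VEGF and angiopoietin pathway. Of its 14 genes, 12 were tested, and at an adjusted p under 0.05 edgeR called 0 in each direction, with 1 lower and 0 higher at an unadjusted p under 0.05. DESeq2 called none of the 12 either, whereas limma-voom with quality weights called *Angpt1* lower. The fit on 10 tumors with the replicate number as a block also called *Angpt1* lower. The log2 fold changes were negative in 11 of the 12, with a median of -0.28, and without PyMT *Pcbp1*+/+ replicate 2 in 9 of the 12, with a median of -0.10. *Figf*, which encodes VEGF-D, and *Angpt4* were too low to be tested, and *Figf* was at 0 in PyMT *Pcbp1*+/+ replicate 2.

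Of the ligands, *Angpt1*, the angiopoietin that activates TIE2, stood at 20.5, 4.87, 6.43, 8.08, 4.54 and 11.6 CPM across PyMT *Pcbp1*–/– tumors 1 to 6 and 39.7, 6.89, 13.8, 19.9 and 14.3 CPM across PyMT *Pcbp1*+/+ tumors 1 to 5. PyMT *Pcbp1*+/+ replicate 1 was the highest and PyMT *Pcbp1*–/– replicate 5 the lowest, and the groups overlapped. Its log2 fold change was -0.997 (edgeR unadjusted p = 0.0437, adjusted p = 0.251), the only unadjusted p under 0.05 on the list, and it ran from -1.38 without PyMT *Pcbp1*–/– replicate 1 to -0.58 without PyMT *Pcbp1*+/+ replicate 1. With limma-voom and quality weights it was -1.22 (adjusted p = 0.0388), over a range of adjusted p from 0.0388 to 0.282 across the other settings tried and 0.107 to 0.516 with each tumor left out.

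*Angpt2*, the context-dependent antagonist made by endothelial cells, stood at 5.72, 7.87, 7.65, 7.53, 8.87 and 8.35 CPM across PyMT *Pcbp1*–/– tumors 1 to 6 and 8.31, 11.8, 9.20, 9.48 and 8.39 CPM across PyMT *Pcbp1*+/+ tumors 1 to 5. PyMT *Pcbp1*–/– replicate 1 was the lowest and PyMT *Pcbp1*+/+ replicate 2 the highest, and the groups overlapped between 8.31 and 8.87 CPM. The log2 fold change was -0.30 (edgeR unadjusted p = 0.0570, adjusted p = 0.283). The ratio of *Angpt2* to *Angpt1* CPM, chosen after the values were seen, was 1.11 ± 0.61 (SD, n = 6) for the PyMT *Pcbp1*–/– and 0.729 ± 0.573 (SD, n = 5) for the PyMT *Pcbp1*+/+ tumors. The difference was smaller than the spread among tumors (exact two-sided permutation test of log2 ratios, p = 0.290, adjusted p = 0.580 over 2 ratios), and the log2 difference ran from 0.33 to 1.09 with a tumor left out.

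*Vegfa*, the chief ligand of VEGFR2, stood at 36.5, 72.6, 49.8, 38.0, 85.0 and 21.9 CPM across PyMT *Pcbp1*–/– tumors 1 to 6 and 65.4, 146, 42.3, 32.3 and 43.8 CPM across PyMT *Pcbp1*+/+ tumors 1 to 5. PyMT *Pcbp1*+/+ replicate 2 was far above the other tumors of its group, and the remaining PyMT *Pcbp1*+/+ tumors lay inside the PyMT *Pcbp1*–/– range. The log2 fold change was -0.37 (95% interval -1.26 to 0.51, edgeR adjusted p = 0.661), and it was 0.14 without PyMT *Pcbp1*+/+ replicate 2. *Pgf*, a ligand of VEGFR1 alone, stood at 15.3, 11.2, 12.2, 7.31, 12.1 and 12.9 CPM across PyMT *Pcbp1*–/– tumors 1 to 6 and 13.9, 66.9, 8.15, 7.75 and 3.39 CPM across PyMT *Pcbp1*+/+ tumors 1 to 5. The same PyMT *Pcbp1*+/+ replicate 2 stood out, and the log2 fold change of -0.74 (95% interval -2.03 to 0.54, edgeR adjusted p = 0.533) was 0.53 without it. *Vegfb*, another VEGFR1 ligand, had a mean of 6.09 CPM for the PyMT *Pcbp1*–/– and 5.92 CPM for the PyMT *Pcbp1*+/+ tumors and a log2 fold change of 0.03 (95% interval -0.33 to 0.39, edgeR adjusted p = 0.940). *Vegfc*, a ligand of the lymphatic receptor VEGFR3, had a mean of 2.20 CPM for the PyMT *Pcbp1*–/– and 2.87 CPM for the PyMT *Pcbp1*+/+ tumors and a log2 fold change of -0.38 (95% interval -1.24 to 0.48, edgeR adjusted p = 0.645), which ran from -0.61 to -0.17 with a tumor left out.

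*Flt4*, which encodes VEGFR3, averaged 3.76 CPM for the PyMT *Pcbp1*–/– and 4.97 CPM for the PyMT *Pcbp1*+/+ tumors, and the fitted log2 fold change was -0.39 (95% interval -1.22 to 0.44, edgeR adjusted p = 0.622), which shrank to -0.016 without PyMT *Pcbp1*+/+ replicate 2. *Nrp1*, a VEGF co-receptor, averaged 16.1 CPM for the PyMT *Pcbp1*–/– and 16.5 CPM for the PyMT *Pcbp1*+/+ tumors, and the fitted log2 fold change was -0.04 (95% interval -0.73 to 0.65, edgeR adjusted p = 0.959). Its relative *Nrp2* averaged 17.2 CPM for the PyMT *Pcbp1*–/– and 20.005 CPM for the PyMT *Pcbp1*+/+ tumors, and the fitted log2 fold change was -0.22 (95% interval -0.91 to 0.47, edgeR adjusted p = 0.749). *Ptprb*, which encodes the endothelial phosphatase VE-PTP that acts on TIE2 and VE-cadherin, averaged 21.7 CPM for the PyMT *Pcbp1*–/– and 26.1 CPM for the PyMT *Pcbp1*+/+ tumors, and the fitted log2 fold change was -0.26 (95% interval -0.72 to 0.19, edgeR adjusted p = 0.535), or from -0.39 to -0.12 with a tumor left out. Its pattern over tumors followed the mean of the 10 endothelial genes with an r of 0.829. *Plcg1*, the phospholipase that VEGFR2 recruits, averaged 51.2 CPM for the PyMT *Pcbp1*–/– and 58.7 CPM for the PyMT *Pcbp1*+/+ tumors, and the fitted log2 fold change was -0.20 (95% interval -0.50 to 0.11, edgeR adjusted p = 0.478), or -0.053 without PyMT *Pcbp1*+/+ replicate 2. The adaptor *Shc2* averaged 2.22 CPM for the PyMT *Pcbp1*–/– and 2.63 CPM for the PyMT *Pcbp1*+/+ tumors, and the fitted log2 fold change was -0.23 (95% interval -0.92 to 0.46, edgeR adjusted p = 0.736), which ran from -0.44 to -0.078 with a tumor left out.

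Over all 18 lists of pathways and cell types beside the 10 endothelial genes, edgeR called 4 genes lower, among them *Timp3*, *Slc2a1* and *Cd14*, and 0 higher at an adjusted p under 0.05. The shares over all genes were 1.66% lower and 0.608% higher, and 171 list genes were tested. DESeq2 called 5 lower and 0 higher, *Kdm3a* being the added gene, and limma-voom with quality weights called 5 lower, with *Angpt1* and *Kdm3a* and without *Cd14*, and 3 higher, the latter *Id2*, *Hbb-bs* and *Pgk1*. Of all 19232 genes tested DESeq2 called 730 lower and 486 higher, and limma-voom called 1190 lower and 968 higher. At an unadjusted p under 0.05 edgeR placed 8 of the 171 tested list genes lower and 6 higher, beside 10.5% and 8.19% of all genes. *Timp3*, an inhibitor of matrix proteases that also blocks VEGF binding to VEGFR2, was the one gene called of 10 tested angiogenesis inhibitors. It stood at 193, 203, 176, 140.3, 167 and 181 CPM across PyMT *Pcbp1*–/– tumors 1 to 6 and 519, 479, 283, 478 and 137 CPM across PyMT *Pcbp1*+/+ tumors 1 to 5. Of the PyMT *Pcbp1*+/+ tumors 4 lay above all PyMT *Pcbp1*–/– tumors and replicate 5 lay below all of them. The log2 fold change was -1.08 (standard error 0.25, edgeR adjusted p = 0.0453), and the adjusted p was 0.000963 without that tumor and up to 0.112 with others left out. Among the fits that left out a tumor, the fit without PyMT *Pcbp1*+/+ replicate 5 alone called *Timp3*. The call was lost with library size alone, no filter, both log2 CPM fits and the replicate number as a block (adjusted p up to 0.128). In the whole list of inhibitors 4 of 10 log2 fold changes were negative, and their median was 0.06 (3 to 6 and -0.20 to 0.12 with a tumor left out).

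Of the other endothelial markers 29 were tested. At an adjusted p under 0.05 edgeR called 1 of them lower, which is not named here, and 0 higher. Over all genes, 1.66% were lower and 0.608% were higher. The log2 fold changes of 21 of the 29 were negative, with a median of -0.11 (16 to 24 negative and -0.23 to -0.054 with a tumor left out). The most abundant of them, *Tm4sf1*, averaged 81.3 CPM for the PyMT *Pcbp1*–/– and 107 CPM for the PyMT *Pcbp1*+/+ tumors, and the fitted log2 fold change was -0.38 (95% interval -1.12 to 0.36, edgeR adjusted p = 0.583), or 0.0048 without PyMT *Pcbp1*+/+ replicate 2. Summed over the list, the other endothelial markers stood at 568, 507, 438, 418, 398 and 425 CPM across PyMT *Pcbp1*–/– tumors 1 to 6 and 593, 776, 455, 584 and 337 CPM across PyMT *Pcbp1*+/+ tumors 1 to 5.

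*Slc2a1*, the glucose transporter GLUT1, was the one gene called of 11 tested hypoxia targets. It stood at 19.3, 27.0, 23.8, 18.3, 22.9 and 23.1 CPM across PyMT *Pcbp1*–/– tumors 1 to 6 and 42.4, 38.6, 33.5, 31.8 and 23.4 CPM across PyMT *Pcbp1*+/+ tumors 1 to 5. PyMT *Pcbp1*+/+ replicate 5 lay within the PyMT *Pcbp1*–/– range and the other 4 PyMT *Pcbp1*+/+ tumors above it. The log2 fold change was -0.59 (standard error 0.14, edgeR adjusted p = 0.0446), with an adjusted p between 0.0147 and 0.101 when each tumor was left out. Among those fits, only the ones without PyMT *Pcbp1*–/– replicate 2 or PyMT *Pcbp1*+/+ replicate 5 called *Slc2a1*. As for *Timp3*, the call was lost with library size alone, no filter, both log2 CPM fits and the replicate block (adjusted p up to 0.101). In the whole list 7 of 11 log2 fold changes were negative, and their median was -0.06 (5 to 8 and -0.15 to 0.066 with a tumor left out).

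In the pathways closest to single members edgeR called no gene with all 11 tumors. Of 10 tested genes of the BMP9, ALK1 and endoglin pathway, 3 were negative and 7 positive with a median log2 fold change of 0.03 (2 to 5 negative and -0.0012 to 0.057 with a tumor left out), where *Id2*, a transcriptional target of the pathway, had 0.33 (edgeR unadjusted p = 0.0245, adjusted p = 0.195) and the inhibitory *Smad6* had -0.19 (edgeR unadjusted p = 0.118, adjusted p = 0.392). Of 14 Notch and arteriovenous genes, 12 were negative with a median of -0.04 (7 to 12 negative and -0.21 to -0.026 with a tumor left out), and the smallest p belonged to *Jag1*, a Notch ligand, at 0.47 (edgeR unadjusted p = 0.122, adjusted p = 0.398), and to *Nr2f2*, the venous regulator COUP-TFII, at -0.48 (edgeR unadjusted p = 0.164, adjusted p = 0.454) and at -0.0015 without PyMT *Pcbp1*+/+ replicate 5. Of 10 sprouting and tip cell genes, 6 were negative with a median of -0.02 (2 to 7 and -0.20 to 0.22 with a tumor left out), led by *Cxcr4*, a chemokine receptor, at 0.27 (edgeR unadjusted p = 0.144, adjusted p = 0.429), and *Plvap* at -0.30 (edgeR unadjusted p = 0.233, adjusted p = 0.533). Of 8 genes for leukocyte adhesion on endothelium, 4 were negative with a median of 0.00 (4 to 6 and -0.15 to 0.046 with a tumor left out), led by *Jam2*, a junctional adhesion molecule, at 0.48 (edgeR unadjusted p = 0.0177, adjusted p = 0.169), and *Icam2* at -0.52 (edgeR unadjusted p = 0.184, adjusted p = 0.478). Over these 4 lists edgeR placed 2 genes higher and 0 lower at an unadjusted p under 0.05. Without PyMT *Pcbp1*–/– replicate 2 it called *Dll1*, a Notch ligand picked after its values were seen, lower at -1.27 (adjusted p = 0.0378), but *Dll1* stood at -0.44 with all 11 tumors and at -0.16 without PyMT *Pcbp1*+/+ replicate 4.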

How the data were processed

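According to the paper and the submitters' processing notes, the authors extracted RNA with Trizol, checked paired-end reads with FastQC, used Bowtie2 for alignment to GRCm38 and worked in Partek; no versions are given, and the annotation release and the counting of strand are not given in the sources used here. The authors deposited estimated counts per gene, of which 18.1% to 19.8% per tumor are not whole as printed (any fraction above 0), and CPM, each deposited estimated count divided by the library total. Gene ends are 1 base before the listed stop.

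Counts were rounded, then tested by edgeR 4.0.16 in R 4.3.3 (TMM factors, default filter on low counts, genotype alone, quasi-likelihood test), with Benjamini-Hochberg adjustment over 19232 genes. Fold changes and p-values were computed here from the deposited counts. Alternatives were DESeq2 1.42.0, limma 3.58.1 (voom with quality weights, or log2(CPM + 1) and log2(CPM + 0.1)), upper-quartile factors or library size alone, other filters (none, or 1 CPM in 5 tumors), protein-coding genes only, the replicate number as a block, and each tumor left out. Exact permutation tests used SciPy 1.17.1. The scripts were tested on simulated data.

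The members and lists were chosen with earlier results of these data known. Named genes were the 10 endothelial genes, the tested VEGF and angiopoietin genes and, from each other list, called genes (at most 4) or else the 2 with the smallest p, with the most abundant gene of each cell type list, the 5 genes outside the lists most like the endothelial mean, and *Pcbp1*; 1 called gene is not reported. *Gdf2*, *Bmp10*, *Madcam1*, *Ppbp*, *Treml1* and *Slc4a1* were listed and not analysed here. Nothing in the labels ties a tumor to a separate animal, so p-values measure the spread between these tumors.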

Additional observations from a re-analysis of the deposited data

Results flagged for a closer look

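Within each genotype, the tumors farthest from the others were looked for in 92 sets of values, covering the genes named in full and the summed lists. In 8 of them 1 tumor stood apart from the rest of its group by Dixon's criterion, where chance gives about 4.6 of 92. No explanation was tested.

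*Kdr* was 8.04 CPM in PyMT *Pcbp1*+/+ replicate 5, below the next lowest tumor of its group at 13.1 CPM. *Vwf* was 17.8 CPM in PyMT *Pcbp1*–/– replicate 6, against 11.9 CPM in the next highest. *Vegfb* was 7.62 CPM in PyMT *Pcbp1*+/+ replicate 3, against 5.85 CPM. *Pgf* was 66.9 CPM in PyMT *Pcbp1*+/+ replicate 2, against 13.9 CPM. The summed hypoxia targets reached 871 CPM in PyMT *Pcbp1*–/– replicate 2, against 604 CPM. The summed red blood cell genes reached 27.9 CPM in PyMT *Pcbp1*+/+ replicate 1, against 13.2 CPM. In the same tumor the summed basal epithelial markers reached 826 CPM, against 420.1 CPM. The summed adipocyte markers reached 115 CPM in PyMT *Pcbp1*+/+ replicate 3, against 34.5 CPM.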

How the results depend on the processing

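The count of endothelial genes called, 0 lower and 0 higher, was the same under all 10 other settings that gave a test and with each of the 11 tumors left out in turn. Their median log2 fold change lay between -0.39 and -0.19 under those settings and the ratio of mean CPM, and between -0.29 and -0.15 with a tumor left out. Without PyMT *Pcbp1*–/– replicate 1, or without PyMT *Pcbp1*+/+ replicate 5, 2 of them were lower at an unadjusted p under 0.05. The shares of all genes lower in those fits were 10.1% and 10.8%. Of 210 single values of the endothelial genes under the alternatives, 7 were positive and 0 were called. *Pcbp1* stayed between -3.60 and -3.34. The median r of gene pairs was 0.46 without removing genotype means.

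The calls among list genes were less stable. Against 4 lower, there were 0 with library size only, no filter, log2(CPM + 1) and log2(CPM + 0.1), and limma-voom gave 3 higher. Over all genes, DESeq2 called 730 lower and 486 higher and limma-voom 1190 lower and 968 higher, beside 319 lower and 117 higher. With a tumor left out, list calls ran from 0 to 4 lower and 0 to 1 higher, and calls over all genes from 144 to 389 lower and 41 to 187 higher. The lowest count of lower genes came without PyMT *Pcbp1*–/– replicate 3, and the highest count of higher genes without PyMT *Pcbp1*+/+ replicate 2. The causes were not tested.

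Whether the replicate numbers pair the tumors could not be settled from so few correlations. Deviations of same-numbered tumors had r values of 0.134, 0.0867, -0.079, -0.144 and 0.293 for numbers 1 to 5, and tumors 1 and 5 alone correlated best with their own number. With the replicate block on 10 tumors, 0 endothelial genes, 1 list gene (*Angpt1*, lower) and 118 lower and 42 higher genes were called, and the endothelial median was -0.22. The same 10 tumors without the block, which is the fit without PyMT *Pcbp1*–/– replicate 6, gave 0 list genes and 212 lower and 69 higher genes.

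Signs turned in several cases, with the cause not tested. Over the fits that left out a tumor, *Tek* ran from -0.33 to 0.051, *Eng* from -0.25 to 0.051, *Vwf* from -0.29 to 0.046, *Vegfa* from -0.59 to 0.14, *Vegfb* from -0.045 to 0.18, *Pgf* from -1.01 to 0.53, *Nrp1* from -0.25 to 0.17 and *Nrp2* from -0.47 to 0.066. No sign turned for *Pecam1* (-0.26 to -0.069), *Cdh5* (-0.41 to -0.10), *Esam* (-0.44 to -0.21), *Kdr* (-0.47 to -0.25), *Flt1* (-0.54 to -0.12), *Tie1* (-0.31 to -0.089) or *Emcn* (-0.45 to -0.15). The positive values came without PyMT *Pcbp1*–/– replicate 5 or PyMT *Pcbp1*+/+ replicates 3 or 4 for *Tek* and *Eng*, those 3 or PyMT *Pcbp1*–/– replicates 3 or 4 for *Nrp1*, PyMT *Pcbp1*+/+ replicate 4 for *Vwf*, and PyMT *Pcbp1*+/+ replicate 2 for *Vegfa*, *Pgf* and *Nrp2*. *Vegfb* was negative without PyMT *Pcbp1*–/– replicate 5 or PyMT *Pcbp1*+/+ replicates 2 or 4. Limma-voom gave -0.045 for *Vegfb* and 0.21 for *Pgf*, and log2(CPM + 0.1) gave 0.0040 for *Pgf*. The log2 difference of the *Flt1* to *Kdr* ratio ran from -0.037 to 0.23 and was negative without PyMT *Pcbp1*–/– replicate 6 or PyMT *Pcbp1*+/+ replicate 5. Counts of 15 to 64 per library limit the precision for *Emcn*, *Tek* and *Tie1*.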

Other observations

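The remaining marker lists describe the tissue around the vessels, and edgeR called 1 of their genes at an adjusted p under 0.05. That gene was *Cd14*, a lipopolysaccharide co-receptor of macrophages that other cells also express, with 80.4 ± 15.7 CPM (SD, n = 6) for the PyMT *Pcbp1*–/– and 186 ± 101 CPM (SD, n = 5) for the PyMT *Pcbp1*+/+ tumors. For *Cd14* the log2 fold change was -1.19 (edgeR adjusted p = 0.0481, and between 0.0392 and 0.10 when single tumors were left out). Limma-voom gave -0.70 (adjusted p = 0.0861) and the replicate block gave -1.01 (adjusted p = 0.193), so the call was lost with both. It was also lost with library size alone, no filter and both log2 CPM fits. Among the fits that left out a tumor, only those without PyMT *Pcbp1*+/+ replicate 3, 4 or 5 called *Cd14*. The other 7 macrophage markers all had positive log2 fold changes, and the median of the 8 was 0.21 (0.075 to 0.37 with a tumor left out). All 5 tested lymphatic endothelial markers were positive with a median of 0.36 (0.16 to 0.69, with 0 to 2 negative, when a tumor was left out). *Reln*, which encodes reelin and was their most abundant gene, averaged 24.2 CPM against 9.79 CPM, with a log2 fold change of 1.34 (edgeR unadjusted p = 0.0397, adjusted p = 0.242). *Lyve1*, the hyaluronan receptor of lymphatic vessels, averaged 2.95 CPM against 1.77 CPM (log2 fold change 0.73, edgeR adjusted p = 0.535), and *Mmrn1* and *Ccl21a* were at 0 in at least 1 tumor.

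Of 10 tested pericyte and smooth muscle markers, 6 were positive with a median log2 fold change of 0.04 (3 to 7 positive and -0.088 to 0.10 with a tumor left out). The smallest p values there belonged to *Cspg4*, which encodes NG2 (-0.19, edgeR adjusted p = 0.663), and *Notch3* (-0.09, edgeR adjusted p = 0.737), which was also the most abundant. Of 8 fibroblast markers 7 were positive with a median of 0.24 (5 to 8 and 0.10 to 0.38 with a tumor left out), led by the collagen genes *Col1a2* (0.35, edgeR adjusted p = 0.388) and *Col3a1* (0.35, edgeR adjusted p = 0.521), and *Col1a1*, the most abundant, had 0.18. All 5 tested red blood cell genes were positive with a median of 0.67 (0.49 to 1.003 with a tumor left out). The globin genes *Hbb-bs* (0.9997, edgeR adjusted p = 0.138) and *Hbb-bt* (0.79, edgeR adjusted p = 0.160) had unadjusted p values of 0.0112 and 0.0156, and their near-identical sequences make the split of reads between them uncertain. Of 4 tested platelet genes 3 were positive (2 to 3 with a tumor left out), with *Gp1bb* at 0.61 (edgeR adjusted p = 0.676), *Itga2b* at -0.25 (edgeR adjusted p = 0.698) and the most abundant, *Itgb3*, at 0.03. Of 4 tested T cell genes 3 were negative (1 to 3 with a tumor left out), with *Cd8a*, the most abundant, at -0.21 (edgeR adjusted p = 0.825) and *Cd4* at -0.12 (edgeR adjusted p = 0.878).

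Epithelial lists held no called gene. Of 10 luminal markers 6 were negative with a median log2 fold change of -0.03 (3 to 7 and -0.14 to 0.083 with a tumor left out), and the smallest p values belonged to *Elf5* (0.25, edgeR adjusted p = 0.398) and *Krt19* (-0.47, edgeR adjusted p = 0.623), while *Ehf*, the most abundant, had -0.03. Of 6 basal markers 4 were negative (2 to 4 with a tumor left out), with *Krt14* at -2.42 (edgeR unadjusted p = 0.0156, adjusted p = 0.160) and at -0.60 without PyMT *Pcbp1*+/+ replicate 2, where it reached 277 CPM, *Trp63* at 0.26 (edgeR adjusted p = 0.759) and the most abundant, *Lgr6*, at -0.12. All 7 tested adipocyte markers were negative with a median of -0.80, with *Lipe* at -0.33 (edgeR adjusted p = 0.335) and *Cfd* at -1.32 (edgeR adjusted p = 0.523). Without PyMT *Pcbp1*+/+ replicate 3, 6 of the 7 were positive and their median was 0.48. With a tumor left out, the sign of single genes named here turned for *Cd8a* (up to 0.088), *Cd4* (up to 0.019), *Itgb3* (down to -0.12), *Ehf* (up to 0.13), *Lgr6* (up to 0.12) and *Cfd* (up to 0.48). The sign of *Mmrn1* also turned, from 0.06 with all 11 tumors to -1.06 without PyMT *Pcbp1*–/– replicate 6.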
